A study of Drosophila melanogaster with 8 samples.

Results

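The 37 genes described here are Drosophila immune genes of the Toll and IMD pathways, and the values are their overlap with phosphorylated p38 (P-p38) peaks in S2 cells. They were taken by name from a fixed list and all 37 were found among the 13922 protein-coding genes annotated on the 6 main chromosome arms. They comprised 17 genes for antimicrobial and related secreted peptides, 7 for peptidoglycan recognition proteins and 13 for other pathway parts. The p38 kinase responds to stress and is active when phosphorylated, and this form was pulled down with its bound chromatin from wild-type S2 cells, an embryonic line with features of haemocytes (insect blood cells), and the DNA was sequenced. The control group received medium alone (2 libraries) and the H2O2 group received 10 mM H2O2 for 30 min (2 libraries), so that the comparison asks where P-p38 lies with and without oxidative stress. Each library has 1 list of peaks deposited by the authors. Peak lists do not measure expression, so the cell type could not be checked against markers, and nothing in the labels says that the replicates were separate cultures.

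The Toll pathway starts outside the cell, where soluble recognition proteins and a protease cascade lead to cleavage of the ligand spz. Its receptor Tl signals through the adaptors Myd88 and tub and the kinase pll to remove the inhibitor cact from the NF-kappaB factors dl and Dif. In the IMD pathway the receptor PGRP-LC signals through the adaptor imd and the IKK subunit key to the NF-kappaB factor Rel. Both pathways switch on genes for secreted peptides that kill bacteria or fungi, and S2 cells are widely used to study them.

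The control lists had 4314 peaks (replicate 1) and 2988 peaks (replicate 2) on these arms, and the H2O2 lists had 6434 (replicate 1) and 4019 (replicate 2). Read depth is unknown, and the authors' fold enrichment was therefore turned into a percentile within each list. Control replicate 1 stood apart from the other libraries at the immune genes although its list was not the longest. Every result below is for that reason given for each library.

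Peaks over the immune genes were found mainly in control replicate 1. A peak overlapped 12 of the 37 members by at least 1 bp in control replicate 1, 2 in control replicate 2, 2 in H2O2 replicate 1 and 3 in H2O2 replicate 2. These counts are 32.4%, 5.41%, 5.41% and 8.11% of the members, beside 13.0%, 12.2%, 10.0% and 11.2% of all protein-coding genes in the same libraries. The members thus lay above the share of all genes in control replicate 1 and below it in the other 3 libraries. Members are shorter, however, with a median length of 943 bp against 2163 bp for all protein-coding genes. Of the protein-coding genes of 1000 bp or shorter, 4.14%, 4.74%, 3.17% and 3.06% were overlapped in the same order. The members as a whole lay above these shares in every library, but this set includes genes longer than 1000 bp. Outside control replicate 1 the overlapped members (Rel, imd, dl and pirk) are all longer than that. None of the members of 1000 bp or shorter was overlapped there. The mean number of members overlapped was 7.0 ± 7.07 in control and 2.5 ± 0.707 in H2O2 (SD, n = 2 libraries each). This difference was smaller than the spread between the control replicates (exact two-sided permutation p = 1.0). With 2 against 2 libraries there are 6 arrangements, and the smallest p that they allow is 0.333. Without control replicate 1 the H2O2 libraries had on average 0.5 members more than the control library.

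**Figure D1:**
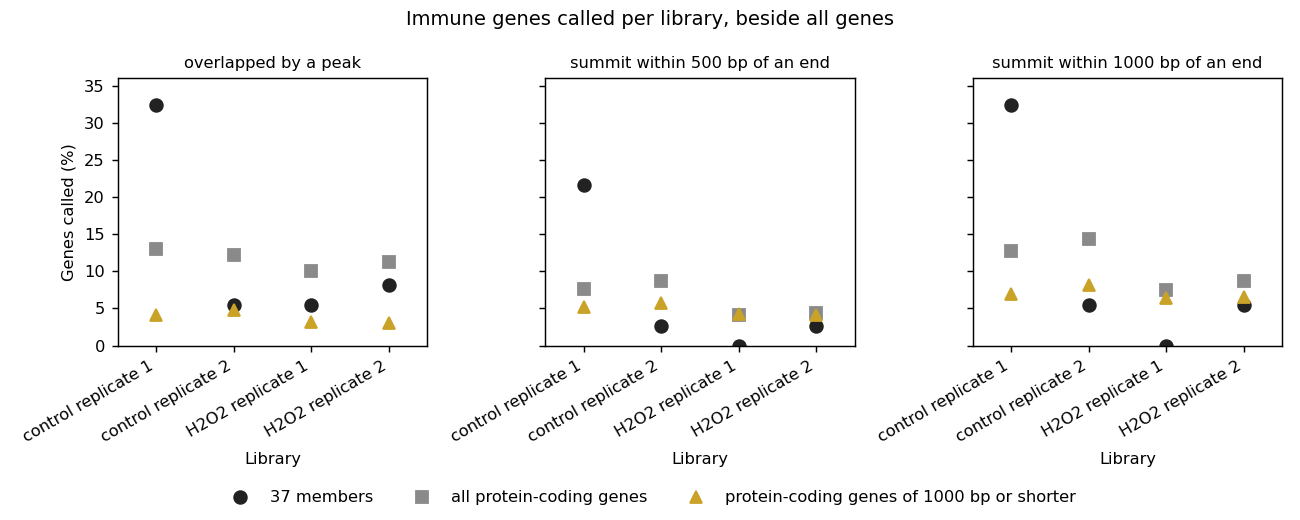
Percent of genes called in each of the 4 libraries (x axis) under 3 rules, for the 37 members (circles), all 13922 protein-coding genes (squares) and the 2679 protein-coding genes of 1000 bp or shorter (triangles). Under each rule the members lie above both gene sets in control replicate 1, and below all protein-coding genes in the other 3 libraries. In those 3 libraries they lie above the short genes for overlap, through members longer than 1000 bp, and below them for summits.

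Summits, the points of highest signal within a peak, were also most often near members in control replicate 1. A summit lay within 500 bp of either end of 8 members in control replicate 1, of 1 in control replicate 2, of 0 in H2O2 replicate 1 and of 1 in H2O2 replicate 2. All protein-coding genes were called by this rule at 7.66%, 8.66%, 4.17% and 4.33%, and the members at 21.6%, 2.70%, 0% and 2.70%. Within 1000 bp of an end the numbers were 12, 2, 0 and 2 members, beside 12.7%, 14.3%, 7.53% and 8.67% of all protein-coding genes. The difference between groups did not exceed the spread between libraries at 500 bp or at 1000 bp (exact permutation p = 0.667 for each). In neither group did both libraries place a summit within 500 bp of the same member, beside 3.49% of all protein-coding genes in control and 1.45% in H2O2. Within 1000 bp Rel alone met this in control, beside 6.69% of all protein-coding genes, and none did in H2O2, beside 3.30%.

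The part of each gene body under peaks separated the libraries in the same way. Mean coverage over the 37 members was 14.6% in control replicate 1, 0.939% in control replicate 2, 0.479% in H2O2 replicate 1 and 1.24% in H2O2 replicate 2. Over all protein-coding genes it was 3.10%, 3.21%, 1.60% and 1.50%, so the 2 control libraries were alike there. The median coverage of the members was 0% in every library, as it was for all protein-coding genes. At least 50% of the gene was covered for 6 members in control replicate 1 and for none in the other 3 libraries, beside 2.16%, 2.31%, 0.704% and 0.668% of all protein-coding genes.

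**Figure D2:**
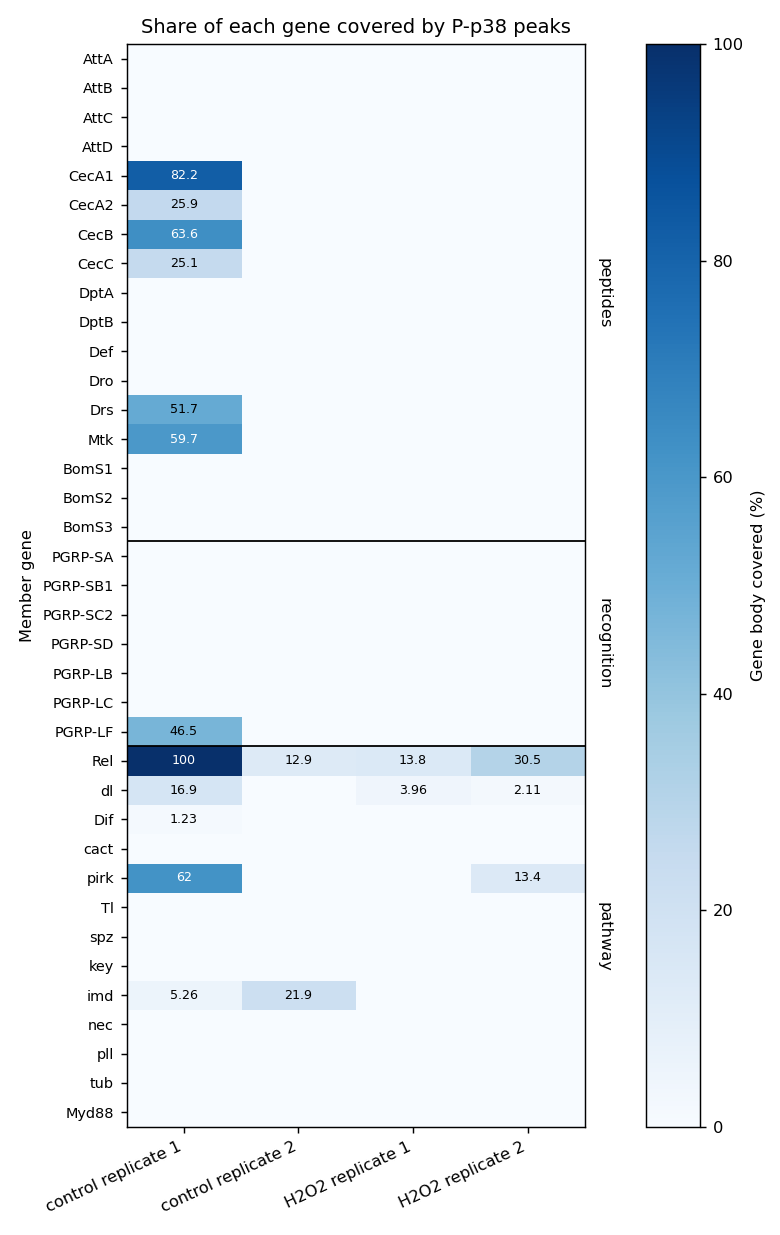
Percent of each gene body covered by P-p38 peaks for the 37 members (rows, in 3 classes) in the 4 libraries (columns), with values above 0 printed. Peptide and recognition genes have covered bases only in control replicate 1, where the highest values are 100% for Rel and 82.25% for CecA1.

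Among the peptide genes, 6 of 17 were overlapped in control replicate 1 and none in the other 3 libraries. Peptide genes are short, with a median length of 483 bp, and of the protein-coding genes of 1000 bp or shorter 4.14% were overlapped in control replicate 1 and 4.74%, 3.17% and 3.06% in control replicate 2, H2O2 replicate 1 and H2O2 replicate 2. The 6 overlapped genes were the cecropins CecA1, CecA2, CecB and CecC, the metchnikowin gene Mtk and the drosomycin gene Drs. Their mean coverage as a class of 17 was 18.1% in control replicate 1 and 0% in each of the other libraries. The group difference of 9.06 percentage points rests on that library (exact permutation p = 1.0).

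The cecropins, secreted peptides that disrupt bacterial membranes, lie together on chromosome 3R of build dm6. CecA1 (30210874 to 30211273) was overlapped by a peak of 657 bp from 30210945 to 30211601 in control replicate 1. Its summit lay inside the gene, 14 bp from an end, and its fold enrichment of 3.63 was the 17th highest of that list, at percentile 99.6. This was the strongest of the 2148 peaks of control replicate 1 that no other library overlapped.

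CecB (30213315 to 30213797) carried a peak of 307 bp at percentile 88.05 that covered 63.6% of the gene. CecA2 (30212156 to 30212568) had a peak of 212 bp at percentile 67.6 over 25.9% of the gene, with its summit 63 bp outside an end. At CecC (30216484 to 30216938) a peak of 938 bp at percentile 90.5 covered 25.1% of the gene, and its summit lay 538 bp outside. Another peak of 516 bp, at percentile 93.2, had its summit in the cecropin pseudogene Cec2 between CecA2 and CecB. All 5 peaks were present in control replicate 1 alone. The 4 cecropins supply 4 of the 6 peptide genes overlapped, and as neighbours, 746 bp to 2686 bp from one to the next, they are not separate observations. Cecropin genes and pseudogenes resemble each other in sequence, and reads may not be separable between them.

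The other libraries had their nearest summits to CecA1 at a distance. In control replicate 2 it lay 2052 bp away and in H2O2 replicate 2 it lay 2747 bp away, in both cases inside the neighbouring ribosomal protein gene RpS7. In H2O2 replicate 1 it lay 37733 bp away. Both control lists had peaks over RpS7, with the peak nearest to the cecropins at percentile 64.4 in control replicate 1 and 95.0 in control replicate 2. The control libraries thus had overlapping peaks at RpS7 and differed at the cecropins.

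**Figure D3:**
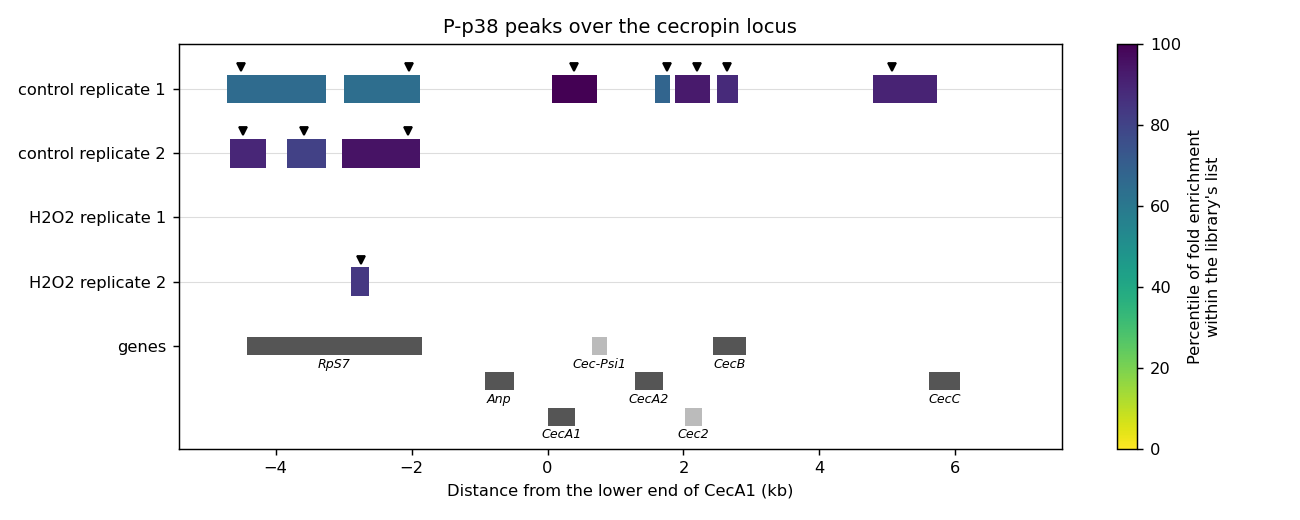
P-p38 peaks (bars, coloured by percentile of fold enrichment within their list) and summits (triangles) of the 4 libraries over the cecropin genes, against distance in kb from the lower-coordinate end of CecA1, with annotated protein-coding genes in dark grey and pseudogenes in light grey. The 5 peaks over cecropin genes and Cec2 are all in control replicate 1, and RpS7 has peaks in both control libraries and in H2O2 replicate 2.

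Mtk, which encodes a proline-rich antimicrobial peptide, lies on 2R (15408846 to 15409113) inside the much longer gene Stacl. A peak of 458 bp in control replicate 1 covered 59.7% of it, with the summit 25 bp from an end and a fold enrichment of 2.49 (percentile 96.9). A second peak of 208 bp followed, its summit 393 bp beyond the gene. In the other libraries the nearest summit was 31020 bp away in control replicate 2, 4043 bp in H2O2 replicate 1 and 39268 bp in H2O2 replicate 2. Because Mtk lies inside Stacl, the signal is assigned to a place and not to 1 of the 2 genes.

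Drs, the antifungal peptide gene often used as a Toll readout, lies on 3L (3369556 to 3369942). Its peak in control replicate 1 was 200 bp wide, covered 51.7% of the gene and stood at percentile 4.56, among the weakest of that list. No peak overlapped Drs in the other libraries, where the nearest summit was 2102 bp, 4412 bp and 2798 bp away in control replicate 2, H2O2 replicate 1 and H2O2 replicate 2.

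The other 11 peptide genes had no peak over them in any library. AttB, an attacin gene, had a summit 416 bp away in control replicate 1, and that summit lay inside its neighbour Rpn6, a proteasome subunit gene, at percentile 23.3. Its nearest summits in control replicate 2, H2O2 replicate 1 and H2O2 replicate 2 were 1131 bp, 193878 bp and 124745 bp away. The remaining 10 were AttA, AttC, AttD, the diptericins DptA and DptB, the defensin gene Def, the drosocin gene Dro, and BomS1, BomS2 and BomS3, which encode short bomanin peptides of the Toll response. Their nearest summit in any library lay between 2366 bp (AttA) and 22584 bp (DptB) away. Dro, AttA and AttB adjoin each other on 2R, as do DptA with DptB and the 3 bomanin genes, so these genes share their surroundings and are not separate observations.

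Of the 7 recognition genes only PGRP-LF was overlapped, in control replicate 1. That is 14.3% of the class, near the 13.0% of all protein-coding genes in that library. PGRP-LF encodes a membrane protein that restrains IMD signalling by binding PGRP-LC, and it lies on 3L (9349609 to 9351489). A peak of 677 bp at percentile 80.6 had its summit inside the gene and also inside the overlapping gene UGP. A second peak of 1146 bp at percentile 92.6 had its summit 595 bp beyond PGRP-LF, inside UGP. Together they covered 46.5% of PGRP-LF. UGP, a gene of UDP-glucose synthesis, overlaps the end of PGRP-LF and both peaks, so the signal is not assigned to either gene. In the other 3 libraries the nearest summit was 22932 bp, 25675 bp and 22914 bp away.

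The other 6 recognition genes had neither a peak over them nor a summit at most 1000 bp from them. PGRP-LC, the IMD receptor adjacent to PGRP-LF, had its nearest summit 2546 bp away in control replicate 1. PGRP-SB1 and PGRP-SC2, which encode amidases that degrade peptidoglycan, had theirs 1299 bp away in H2O2 replicate 1 and 1575 bp away in control replicate 1. For PGRP-LB, a further amidase, the nearest was 7215 bp away in H2O2 replicate 1. PGRP-SA, a soluble sensor of the Toll pathway, had its nearest summit 7340 bp away in control replicate 2, and PGRP-SD, a partner in sensing, had its nearest 39425 bp away in H2O2 replicate 1. Mean coverage of the class was 6.65% in control replicate 1 and 0% in the others (exact permutation p = 1.0).

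Pathway parts were the only class with peaks in every library. Of 13 such genes 5 were overlapped in control replicate 1, 2 in control replicate 2, 2 in H2O2 replicate 1 and 3 in H2O2 replicate 2. These are 38.5%, 15.4%, 15.4% and 23.1% of the class, beside the 13.0%, 12.2%, 10.0% and 11.2% of all protein-coding genes, and the class is long, with a median of 3804 bp against 2163 bp. Mean coverage of the class was 14.3%, 2.67%, 1.36% and 3.54% in the same order (exact permutation p = 0.667). Among all members Rel alone was overlapped in all 4 libraries, beside 1.90% of protein-coding genes. In control replicate 2 this rested on 2 weak peaks that would not pass a q limit of 0.05. Both control libraries overlapped 2 members (Rel and imd), beside 6.92%, and both H2O2 libraries overlapped 2 (Rel and dl), beside 5.82%. At dl the peaks of the H2O2 libraries did not overlap each other. No member was overlapped in both H2O2 libraries and in no control library, beside 2.34%.

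Rel, the NF-kappaB factor of the IMD pathway, lies on 3R (9044183 to 9047977) inside the gene Nmdmc, which encodes a mitochondrial folate enzyme. In control replicate 1 a single peak of 4393 bp (9043614 to 9048006) covered 100% of Rel, with a fold enrichment of 3.60, the 20th highest of that list (percentile 99.6). Control replicate 2 had 2 peaks over 12.9% of the gene, at percentiles 4.36 and 4.67. Their q-values, as −log10, were 0.531 and 0.601, which would not pass a q limit of 0.05. H2O2 replicate 1 had 2 peaks over 13.8%, at percentiles 2.80 and 15.0. The weaker of them, at −log10 q of 1.06, would not pass that limit either. H2O2 replicate 2 had 3 peaks over 30.5%, at percentiles 21.4, 30.1 and 68.4. The second control library lay below both H2O2 libraries in coverage, so the groups overlapped (control 56.4% ± 61.6, H2O2 22.1% ± 11.9, SD, n = 2 each, exact permutation p = 1.0).

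Towards the higher-coordinate end of Rel, peaks of control replicate 2 and of both H2O2 libraries overlapped. Summits lay 3018 bp, 2794 bp, 2535 bp and 2663 bp above the lower end of Rel in control replicates 1 and 2 and H2O2 replicates 1 and 2. The peaks of the last 3 libraries that hold these summits overlapped one another. They lay within the broad peak of control replicate 1, but that peak covers all of Rel and would hold any peak inside the gene. The summit of control replicate 1 lay inside the peak of H2O2 replicate 2 and outside those of control replicate 2 and H2O2 replicate 1.

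**Figure D4:**
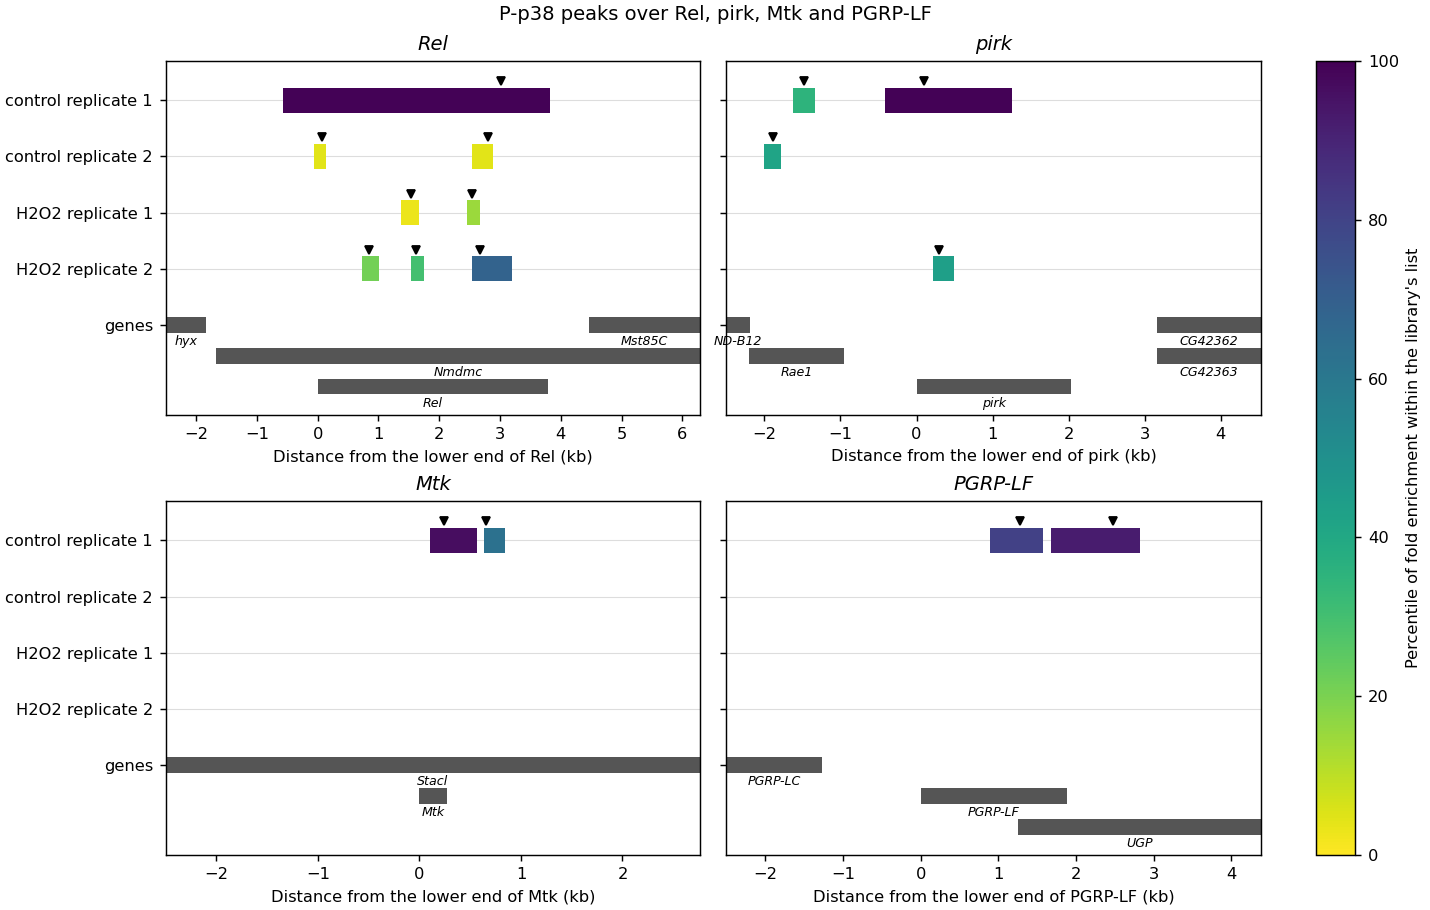
P-p38 peaks (bars, coloured by percentile of fold enrichment within their list) and summits (triangles) of the 4 libraries over Rel, pirk, Mtk and PGRP-LF, against distance in kb from the lower-coordinate end of each gene. Rel has peaks in every library, pirk in control replicate 1 and H2O2 replicate 2, and Mtk and PGRP-LF in control replicate 1 alone.

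The gene pirk encodes an intracellular inhibitor of the IMD pathway that is itself induced by it. It lies on 2R (21660967 to 21662995) and overlaps no other protein-coding gene. In control replicate 1 a peak of 1673 bp covered 62.05% of it, with the summit 101 bp inside the lower end and a fold enrichment of 3.43, the 26th highest of the list (percentile 99.4). In H2O2 replicate 2 a peak of 271 bp covered 13.4% at percentile 44.0, with its summit 292 bp inside the same end. Control replicate 2 and H2O2 replicate 1 had no peak over pirk, and their nearest summits were 1887 bp and 10295 bp away. The group means of coverage were 31.0% ± 43.9 in control and 6.68% ± 9.44 in H2O2 (SD, n = 2 each, exact permutation p = 1.0).

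The adaptor gene imd was the only member that both control libraries and no H2O2 library overlapped, beside 3.62% of protein-coding genes. On 2R (18409796 to 18413599), it had 1 peak over 5.26% of the gene in control replicate 1, at percentile 37.6. Control replicate 2 had 2 peaks over 21.9%, at percentiles 3.52 and 92.9. The weaker of these overlapped the peak of control replicate 1, and their summits lay 1402 bp and 1425 bp above the lower end of imd. This weaker peak, at −log10 q of 0.531, would not pass a q limit of 0.05. The stronger had its summit where imd overlaps Dp1, a gene for an RNA-binding protein. A further summit of control replicate 2 lay 514 bp below imd, inside the glutathione transferase gene GstE9. In H2O2 the nearest summits were 1794 bp and 1770 bp away. The groups did not overlap in coverage of imd (13.6% ± 11.7 against 0%, n = 2 each), which gives the smallest p possible here (exact permutation p = 0.333).

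The NF-kappaB genes of the Toll pathway lie near each other on 2L and had peaks of low to middle percentile inside them. The gene dl (17436830 to 17450364) had 4 peaks in control replicate 1 over 16.9% of its length, none in control replicate 2, 2 in H2O2 replicate 1 over 3.96% and 1 in H2O2 replicate 2 over 2.11%. All of these stood between percentiles 10.7 and 44.6 of their lists. Neither peak of H2O2 replicate 1 overlapped the peak of H2O2 replicate 2. No summit lay closer than 2310 bp to an end of dl. Dif (17413248 to 17433161) had 1 peak over 1.23% of its length, in control replicate 1, at percentile 45.6. In control replicate 2 the nearest summits were 520451 bp from dl and 496869 bp from Dif, so that list was empty over this stretch of 2L.

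Summits near 2 other pathway genes lay at or beyond their neighbours. In control replicate 1 a summit 287 bp outside key fell inside CG3589 at percentile 24.7, and the nearest summits to key in control replicate 2, H2O2 replicate 1 and H2O2 replicate 2 were 33812 bp, 97367 bp and 1340 bp away. This gene encodes the regulatory IKK subunit of the IMD pathway. A summit 749 bp outside the ligand gene spz belonged to a peak over the end of Nep5, at percentile 22.3. In the other libraries, in the same order, the nearest to spz were 192156 bp, 3262 bp and 9919 bp away. For cact, Tl, nec, pll, tub and Myd88 no library had a peak over the gene or a summit at most 1000 bp from it. The nearest summits in any library were 1212 bp from nec, a serpin gene that restrains the Toll protease cascade, and 5329 bp from Myd88, 7579 bp from tub, 9044 bp from pll, 10558 bp from Tl and 15204 bp from cact.

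In all, 12 members (32.4%) had an overlapping peak in at least 1 library, beside 26.8% of all protein-coding genes. Counting summits at most 1000 bp from an end as well, 15 members (40.5%) were marked, beside 34.8% of all protein-coding genes, and 22 were not. The latter comprised 10 peptide, 6 recognition and 6 pathway genes, and their nearest summit in any library lay 1212 bp to 39425 bp away, with a median of 8311.5 bp. Position with respect to other genes touches many of these values, since 15 of the 37 members overlap another protein-coding gene and 7 of them lie wholly inside one.

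Distances to the nearest summit were also shortest in control replicate 1. The median over the members was 3867 bp in control replicate 1, 17101 bp in control replicate 2, 22035 bp in H2O2 replicate 1 and 13896 bp in H2O2 replicate 2. Over all protein-coding genes these medians were 16148 bp, 16350 bp, 26966 bp and 19746 bp, so the members were nearer in both H2O2 libraries too, unlike in the counts. By class, in control replicates 1 and 2 and H2O2 replicates 1 and 2, the medians were 3867 bp, 12195 bp, 37733 bp and 16548 bp for peptides. They were 17560 bp, 26085 bp, 28828 bp and 26067 bp for recognition genes. For pathway parts they were 749 bp, 22819 bp, 7623 bp and 1910 bp. In H2O2 replicate 1 only pathway parts had a shorter median than all protein-coding genes. In H2O2 replicate 2 recognition genes had a longer one.

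**Figure D5:**
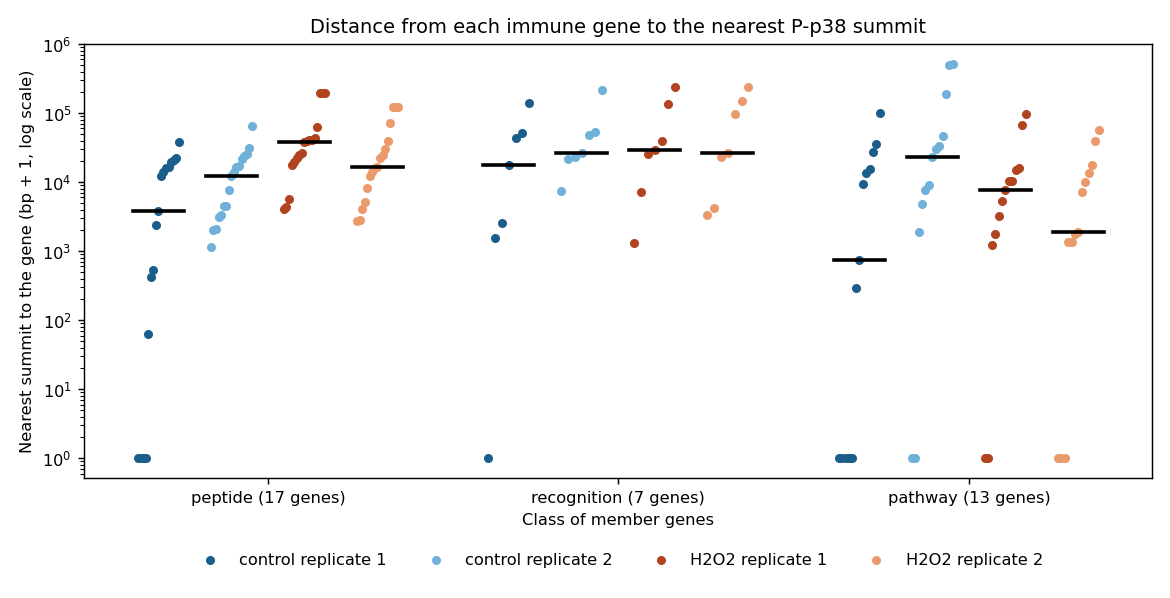
Distance from each member to the nearest P-p38 summit in bp plus 1 (log scale, 0 bp inside the gene), by class and library, with bars at the medians. The lowest peptide values, at 0 bp, are all in control replicate 1, while pathway genes have values at 0 bp in every library.

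The replicates of a group were compared directly. Of the 12 members overlapped in control replicate 1, 2 (16.7%, Rel and imd) were also overlapped in control replicate 2, where the same share over all protein-coding genes was 53.4%. In the other direction both members of control replicate 2 were among the 12, against 56.7% of all protein-coding genes. Between the H2O2 libraries, both members of replicate 1 (Rel and dl) were overlapped in replicate 2, and pirk was overlapped in replicate 2 only. The H2O2 peaks at dl lay at different places within the gene. Over all protein-coding genes 58.0% and 51.9% were shared between H2O2 replicates. Control replicate 1 alone overlapped 8 members, or 21.6% of the 37, beside 3.54% of all protein-coding genes and 1.98% of those of 1000 bp or shorter. These 8 are 66.7% of the members it overlapped, against 27.3% of all protein-coding genes that it overlapped and 47.7% of those of 1000 bp or shorter. The 4 cecropins, which are neighbours, make up 4 of the 8.

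Strong peaks at members were found mainly in control replicate 1. Control replicate 1 had 21 peaks at members, counting those over a member and those with a summit at most 1000 bp away, and 7 of them stood at or above percentile 90 of the list. The numbers were 5 peaks with 1 at that level in control replicate 2, 4 with none in H2O2 replicate 1 and 5 with none in H2O2 replicate 2. In the whole lists 434 of 4314, 300 of 2988, 613 of 6434 and 395 of 4019 peaks stood at that level. Outside control replicate 1 the peaks at members are too few to compare in strength. With peaks of q of 1e-05 or less only, 7 members were overlapped in control replicate 1 (CecA1, CecB, CecC, Mtk, PGRP-LF, Rel and pirk), beside 4.35% of all protein-coding genes. One member, imd, was overlapped in control replicate 2 at this level, beside 4.97%, and none in either H2O2 library, beside 1.17% and 1.16%.

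Other genes of the immune system were read from 5 lists of 110 genes, and their shares stand beside the 13.0%, 12.2%, 10.0% and 11.2% of all protein-coding genes overlapped in control replicates 1 and 2 and H2O2 replicates 1 and 2. Of 21 other IMD genes, 4, 5, 0 and 4 were overlapped in the same order, or 19.0%, 23.8%, 0% and 19.0%. Those overlapped in both control libraries were the ubiquitin-conjugating enzyme gene eff, the TAK1-binding adaptor gene Tab2 and the deubiquitinase gene scny, and none was overlapped in both H2O2 libraries. The gene eff was covered over 39.8%, 31.2%, 0% and 3.76%. Of 29 other Toll genes, 3, 3, 1 and 3 were overlapped, or 10.3%, 10.3%, 3.45% and 10.3%. In both control libraries these were lwr, a SUMO-conjugating enzyme gene covered over 11.5% and 40.2% there and 0% in both H2O2 libraries, and the kinase gene Gprk2. In both H2O2 libraries it was the serpin gene Spn88Ea, covered over 39.0%, 0%, 26.0% and 28.2% in the 4 libraries. 

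Of 22 other immune peptide genes, 2, 0, 2 and 1 were overlapped, or 9.09%, 0%, 9.09% and 4.55%. Most of these genes are short, and of the protein-coding genes of 1000 bp or shorter 4.14%, 4.74%, 3.17% and 3.06% were overlapped. The 2 of control replicate 1, edin and Drsl2, were overlapped in that library alone, over 76.5% and 58.0% of their length at percentiles 81.6 and 47.5, and were singled out after their values were seen. The bomanin gene BomBc3 was overlapped in both H2O2 libraries, over 20.1% and 20.7% at percentiles 13.4 and 35.3, and in neither control library. Listericin was overlapped in H2O2 replicate 1 alone, over 2.0% of its length, and was also singled out after its values were seen. Of 17 JAK-STAT and Turandot genes, 3, 4, 3 and 5 were overlapped, or 17.6%, 23.5%, 17.6% and 29.4%. Stat92E, the transcription factor of that pathway, was overlapped in every library, its inhibitor Socs36E in both control libraries and H2O2 replicate 2, and the ligand gene upd2 in both H2O2 libraries and control replicate 1.

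Of 21 melanization and engulfment genes, 6, 2, 6 and 5 were overlapped, or 28.6%, 9.52%, 28.6% and 23.8%. The thioester protein gene Tep4 was covered over 74.3% in control replicate 1, 0% in control replicate 2, 15.4% in H2O2 replicate 1 and 19.9% in H2O2 replicate 2. PPO2, a prophenoloxidase gene, was covered over 15.7% and 15.6% in H2O2, by peaks at percentiles 1.47 and 7.75, and 0% in control. Dscam1, a long gene for a variable surface receptor, was overlapped in every library, and the engulfment receptor gene drpr in both control libraries and H2O2 replicate 1. These lists were not tested.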

How the data were processed

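P-p38 ChIP-seq of S2 cells gave 4 immunoprecipitated libraries with a deposited peak list each, and the 4 inputs were not analysed here. Picard and MACS2 were used on build dm6, per the submitters' processing notes, while no version, option or background library is stated in the labels. Each list gives the authors' fold enrichment (a linear ratio), a p-value and q-value as −log10, and a score, which in the deposited values equals −log10 of the p-value times 10, rounded down. The lowest deposited −log10 p was 2.00 to 2.01. Peaks were called per library.

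Gene spans came from RefSeq Release 6, which gives no strand, so distances are to either end. The members and lists were chosen with earlier results of these data known. Overlap meant at least 1 bp. Each member with a peak over it, or a summit within 1000 bp of an end, was described in every library, and listed genes overlapped in both libraries of a group were named. Of 112 other symbols 111 matched, giving 110 genes. Values per library were compared by exact two-sided permutation over libraries, which measures only the spread between these samples. Single members were compared without adjustment. No promoter sequence was used here, so a planned motif count was not run. Interval code was tested on simulated data, with Python 3.11.15, NumPy 2.4.6 and pandas 2.3.3. Alternatives were stricter or equal-length lists (2988 peaks), other distances or overlaps, a replicate block and leaving out each library.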

Additional observations from a re-analysis of the deposited data

How the results depend on the processing

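The difference between groups rested on control replicate 1. In the number of members overlapped, H2O2 minus control, it was -4.5 members, and it turned to 0.5 without control replicate 1, with a range of -9.5 to 0.5 when each library was left out in turn. For summits within 500 bp of an end it was -4.0 (-7.5 to -0.5), within 1000 bp -6.0 (-11.0 to -1.0), and for mean coverage -6.91 percentage points (-13.7 to -0.0783). These 4 differences kept their sign with a stricter q limit of 1e-05 and with equal-length lists, as did the overlap count with other overlaps and the summit counts with other distances. None passed 0.05, which no arrangement of 2 against 2 libraries can do. Some counts of members called in both libraries of a group also moved. At q of 1e-05 or less they were 0 in control and 0 in H2O2, in place of 2 and 2, and 0 members in place of 1 had a summit within 1000 bp in both control libraries. With lists of equal length 0 members were overlapped in both H2O2 libraries. With the replicate number as a block the differences were the same, -4.5, -4.0, -6.0 and -6.91, each with an exact permutation p of 1.0, where the smallest possible is 0.5. The labels do not say that the numbers pair the libraries. Peak names inside the deposited lists carry the number 3 in both replicate 1 lists and 2 in both replicate 2 lists, which may tie them across groups. The differences between replicates 1 and 2 in the 2 groups correlated at r = 0.060 over the coverage of 13922 genes. Depth is unknown, so a gene with no peak cannot be said to lack P-p38.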

Other observations

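Of the 44 peaks of control replicate 1 at or above percentile 99 of fold enrichment, 3 (6.82%) overlapped no peak of another library, and the peak over CecA1 was the strongest of them. At or above percentile 95 the number was 37 of 217 (17.1%), among them the peak over Mtk, which was 21st among the 2148 unshared peaks of the list. The other unshared peaks at or above percentile 99 lay on 2L (20120842 to 20121252), over no annotated gene, and over Ae2, an anion exchanger gene. Among the 25 strongest unshared peaks of this list were also ones over the chloride channel gene Clic and over the growth regulator gene Myc. The latter peak also lay over lncRNA:CR44999. Clic and Myc were picked from the 25 without a set rule, and most of the 25 are not named here. In the other lists the unshared number at or above percentile 99 was 0 of 30 peaks in control replicate 2, 12 of 55 (21.8%) in H2O2 replicate 1 and 0 of 40 in H2O2 replicate 2. At or above percentile 95 it was 18 of 150 (12.0%), 97 of 296 (32.8%) and 25 of 196 (12.8%). These peaks were looked for after the values at the cecropins had been seen.

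The gene nec lies wholly inside the much longer gene pk. Near nec, both H2O2 libraries had summits where Spn43Ad and pk overlap, at percentiles 83.1 and 74.7 and 1212 bp and 1910 bp from nec. The peaks that hold these summits did not overlap each other. The control libraries had their nearest at 35508 bp and 4830 bp, also inside pk, at percentiles 51.6 and 12.2. These H2O2 peaks were singled out after their values were seen and were not tested. No cause of the difference between the control libraries was tested.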
